A study of Rattus norvegicus with 4 samples.

Results

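The genes described here build the entrance of the secretory pathway, from the recognition of a nascent protein and its passage through the membrane of the endoplasmic reticulum (ER) to the transfer and trimming of N-linked glycans. The set was listed by function and held 59 genes. The mRNA table listed 49 of them among 13114 gene names, 17 of 23 for translocation and 32 of 36 for glycosylation. Of these 49, the deposited functional annotation names the ER for 37. The genes Srp68, Srp72, Srprb, Sec62, Alg6, Alg13, Stt3a and Uggt2 are not analysed here. RefSeq lists Srp54 and Srpr as Srp54a and Srpra, and those names are described apart from the counts of the set.

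The study describes the cells as Sertoli cells, which support developing germ cells inside the seminiferous tubule. The cells were isolated from Sprague-Dawley rat pups and passaged in serum-containing medium. They were then kept for 24 h without 4-nonylphenol (control, 2 libraries) or with it (4-NP-treated, 2 libraries). 4-Nonylphenol is an alkylphenol that binds estrogen receptors. Total RNA without ribosomal RNA was sequenced, at 96.6 to 119 M mapped reads per library. Each value is in FPKM, fragments scaled to transcript length and to mapped fragments. Levels of different genes are set side by side on this scale, and how well it holds between genes was not tested. The labels do not say whether the libraries came from separate cultures, so each p-value reflects no more than the variation among these samples, which may be technical. Across all genes tested the log2 values correlated at 0.94 between controls, at 0.95 between treated libraries and at 0.79 between any control and any treated library, which describes the libraries only. Markers of Sertoli cells differed in level. Sox9, Gata4 and Fshr were under 1 FPKM in every library. In control, Tf had 94.2 and 86.5 FPKM, Clu 70.5 and 61.8 FPKM and Inha 17.0 and 15.7 FPKM. The summed level of the 10 listed markers was 187 to 202 FPKM in control and 50.8 to 59.4 FPKM in treated cells. The 7 listed smooth muscle markers summed to 7684 and 7755 FPKM in control and to 636 and 627 FPKM in treated cells, and all 7 were lower. In control their sum was far above that of the Sertoli markers, and the identity of the cells was not tested. Of the 10 Sertoli markers, 7 were tested and were lower, 4 of which (Wt1, Dhh, Cldn11 and Kitlg) reached the filter through the controls alone, so that only 3 were at 1 FPKM or more in both groups. The 4 germ cell markers summed to at most 13.1 FPKM, the 6 macrophage markers to at most 8.39 FPKM and the 4 endothelial markers to at most 7.73 FPKM. In these 3 lists no gene averaged 1 FPKM in both groups, and the macrophage marker Cd68 had 0.0888 and 0.301 FPKM in control and 0.552 and 0.812 FPKM with 4-NP. The 3 Leydig cell markers summed to 306 to 311 FPKM in control and 788 to 814 FPKM in treated cells, nearly all of it Star, which rose, while Cyp11a1 had 1.15 and 1.05 FPKM in control and 0.0883 and 0.142 FPKM with 4-NP and Cyp17a1 was at 0 in 3 of the 4 libraries. The part of these shifts in the results below was not tested, and in bulk RNA fewer cells of a type and less RNA per cell cannot be told apart.

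As background, proteins bound for secretion or for membranes are caught on the ribosome by the signal recognition particle, docked at its receptor and threaded through the Sec61 channel. The signal peptide is cut off by signal peptidase while the oligosaccharyltransferase attaches a preassembled sugar tree, built on the lipid dolichol, to asparagine residues. Glucosidases and the lectin calnexin then use this tree to time folding, and Golgi enzymes remodel it. Sertoli cells secrete many glycoproteins that nourish germ cells, and genes of this pathway are known targets of the unfolded protein response, the program that enlarges ER capacity under stress.

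Transcripts of this pathway were mostly more abundant after 4-NP. Of 46 members with a mean of at least 1 FPKM, 27 were higher, 2 were lower and 17 did not pass the test (limma on log2(FPKM + 1), Benjamini-Hochberg adjusted p under 0.05 over all genes tested). Among all 8012 genes tested, 24.7% were higher and 23.1% were lower. The median log2 change was 0.69 for the tested members and 0.05 for all genes tested. Of the tested translocation members 10 of 17 were higher and 0 lower, and 17 of 29 tested glycosylation members were higher and 2 lower. Their median log2 changes were 0.62 and 0.74, and no test of the difference between them was made. At an unadjusted p under 0.05, no translocation member was lower either. Both treated libraries lay above both controls for 35 of the 46 members and below them for 3, against 40.1% and 36.3% of all genes tested. By the threshold of the study, an unadjusted p under 0.05 with a log2 change beyond 1, 11 members were higher and 2 lower, against 11.4% and 15.2% of all genes. The study set it on edgeR values, and here it was put on limma differences of log2(FPKM + 1). When each group on its own had to average 1 FPKM or more, a restriction added after seeing the data that removes Alg11 and Dpm1, 26 of 44 members were higher and 2 lower, 16 of the higher ones among 27 glycosylation members, against 26.1% and 19.2% of 6941 genes. Without treated replicate 1 the glycosylation members called higher fell to 11, and without control replicate 1 there was 1 translocation member called lower, Sec63.

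**Figure D1:**
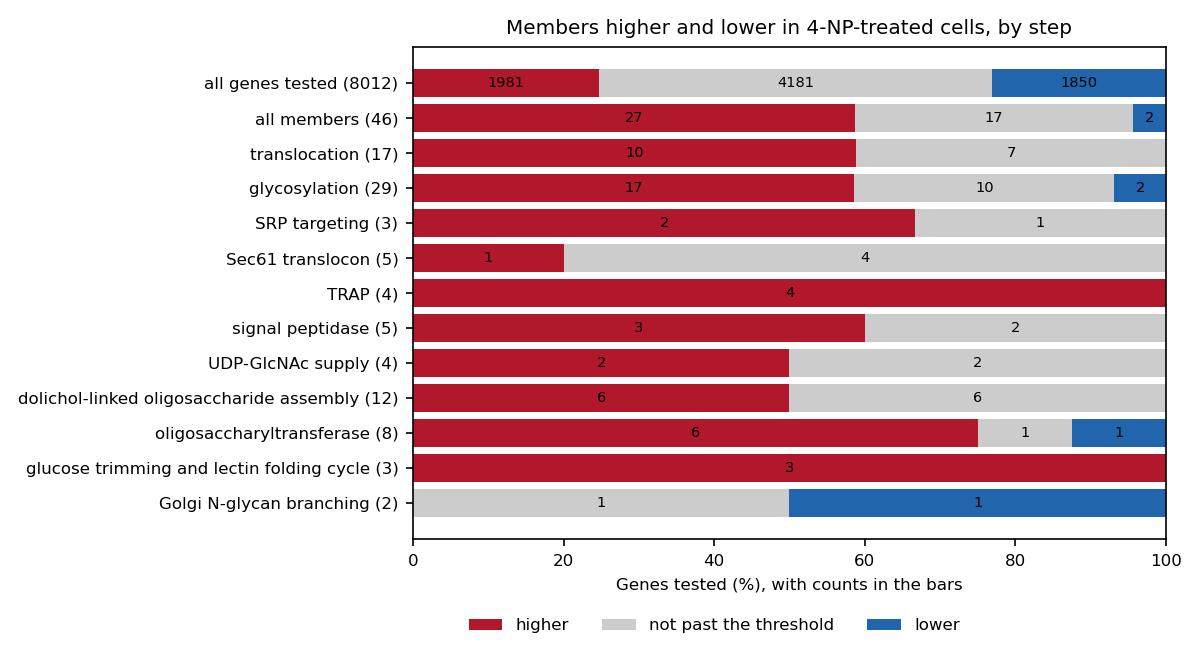
Share of tested genes that were higher (red), lower (blue) or not past the threshold (grey) in 4-NP-treated cells, for all genes, for the members and for each step, with the number tested in brackets and counts in the bars. Of the 46 tested members 27 were higher and 2 lower, and the translocon-associated proteins (TRAP) and the trimming and lectin cycle were higher in every tested member.

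The members together made up 0.933% and 0.951% of all FPKM in the control libraries and 1.39% and 1.41% in the treated libraries. Summed over the 17 translocation members the level was 1441 and 1537 FPKM in control and 2281 and 2342 FPKM in treated cells, a ratio of 1.55. For the 32 glycosylation members it was 1031 and 1083 FPKM in control and 1689 and 1703 FPKM in treated cells, a ratio of 1.60. The supply of the sugar donor UDP-GlcNAc had the highest ratio of any step, at 2.32, and Golgi branching was the only step below 1, at 0.460. These sums follow the most abundant genes of each step.

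As many members rose, the RefSeq promoters given for them (GRCr8, 250 bases before to 50 after each gene's start) were read for short elements known from the unfolded protein response. Of the 49 listed members 44 had a promoter there. The ER stress element (ERSE), searched on both strands as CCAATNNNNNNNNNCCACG, was found in 1 of these 44 genes, Canx, against 21 of 27457 genes with a promoter (0.0765%). The element TGACGTGG, known as UPRE, was found in 1 of 44, Srp19, against 187 of 27457 genes (0.681%). The shorter variant ERSE-II was in none of the 44 and in 17 of all 27457 genes. The amino acid response element, searched as TGATGNAAN, was in 1 member, Alg1, and in 4.14% of all genes. The windows below show the matches of Canx and Srp19 in capitals, beside that of Hspa5, the ER chaperone BiP, whose element is the textbook case. They are written 5′ to 3′ along the gene, on chr10:35158063-35158092 (minus strand), chr18:26205722-26205751 (plus strand) and chr3:38452968-38452997 (plus strand). In Srp19 the UPRE reads on the opposite strand, so the capitals are its reverse complement.
Canx: cttgtCCAATCATCACGCTCCACGaagaat
Srp19: cgtccttcaagCCACGTCActccgagacgg
Hspa5: gttcaCCAATCGGAGGCCTCCACGacgggg
The match begins 230 bases before the annotated start of Canx, 155 before that of Srp19 and 43 before that of Hspa5. Both members were higher after 4-NP, as given with their steps. Of the 44 members with a promoter, 24 were called higher. The matches of Alg1, which was not tested, are not shown. A match is a description and not a shown binding site, and the absence of these letters from the other windows says nothing of the factors.

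**Figure D2:**
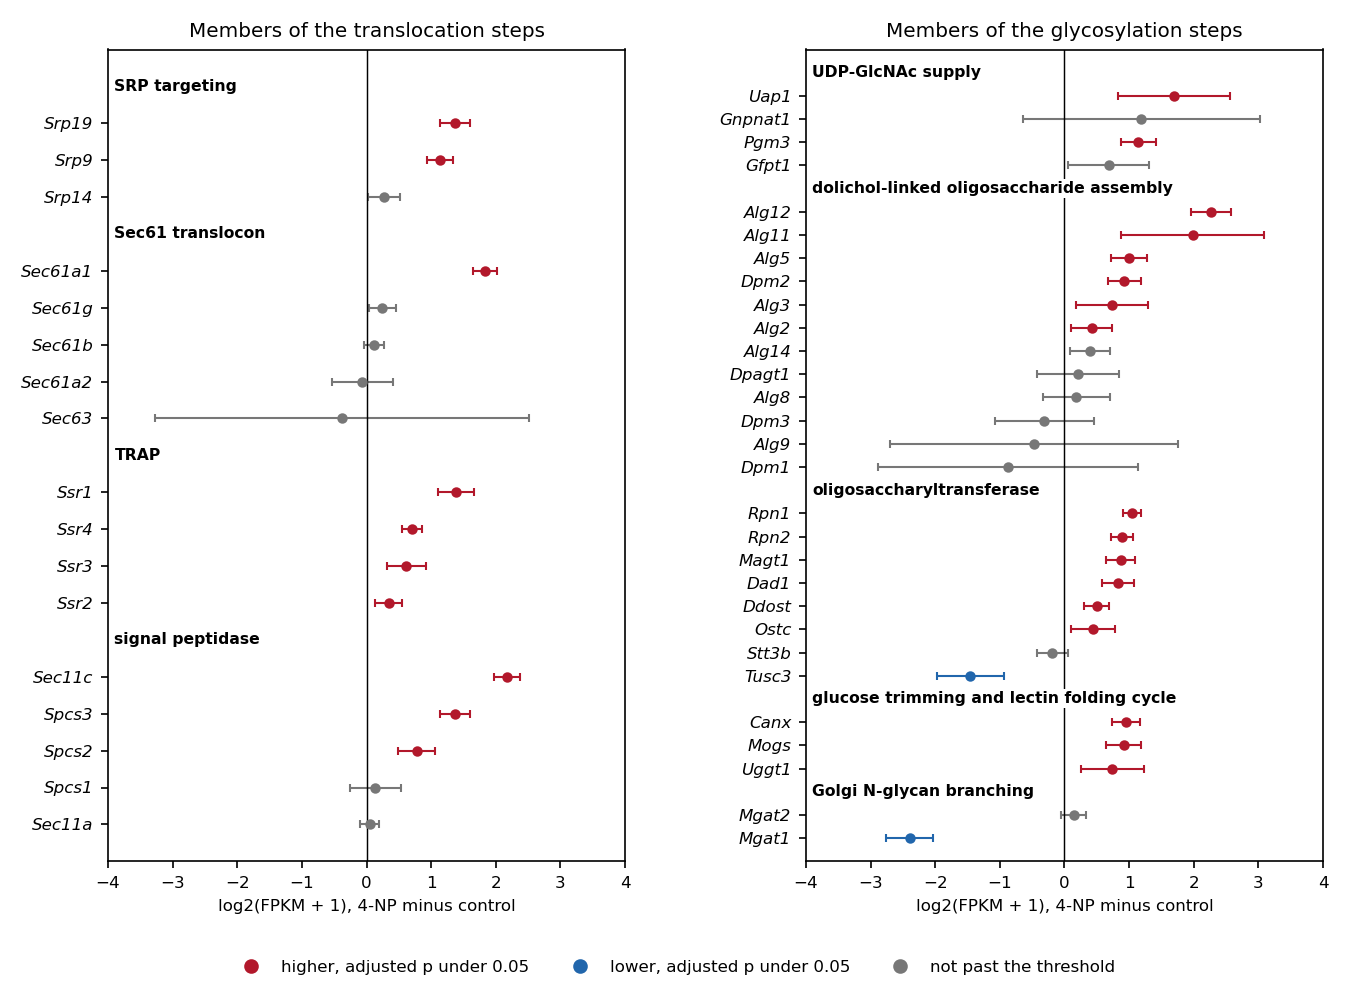
Difference in log2(FPKM + 1), 4-NP minus control, for each tested member with its 95% interval from limma (2 libraries per group), grouped by step and coloured by call. Alg12 (2.27) and Sec11c (2.17) lie farthest to the right, and Mgat1 (-2.39) and Tusc3 (-1.46) are the blue points on the left.

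Of the 3 tested members of the signal recognition particle, which targets proteins to the ER, 2 rose. Srp19, a protein that helps assemble the signal recognition particle, was at 25.5 and 26.1 FPKM in control and 64.6 and 72.1 FPKM in treated libraries, a 2.65-fold difference (log2 change 1.37 ± 0.08, SE, limma adjusted p = 0.00187). Srp9, which with Srp14 forms the part of the particle that slows translation, went from 22.5 and 24.0 to 51.9 and 53.1 FPKM, 2.26-fold (limma adjusted p = 0.0019). Its partner Srp14 did not pass, with 63.3 and 62.6 FPKM in control and 71.1 and 81.2 FPKM in treated libraries (1.21-fold, limma adjusted p = 0.0764), although its groups did not overlap. Thus the levels of the partners drew closer, from a lower Srp9 in control to a smaller gap in treated cells. The receptor subunit listed as Srpra and the GTP-binding subunit of the particle listed as Srp54a were named after their values were seen. Srpra stood at 27.8 and 29.9 FPKM in control and 153 and 159 FPKM in treated libraries, 5.41-fold higher (limma adjusted p = 0.000781). For Srp54a the levels were 44.2 and 50.1 FPKM in control and 157 and 168 FPKM with 4-NP, 3.44-fold higher (limma adjusted p = 0.00142).

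In the Sec61 channel the pore subunit rose and the small subunits did not pass. Sec61a1, the pore-forming alpha subunit, lies on chromosome 4 from 120453581 to 120467932 on the minus strand in the deposited coordinates, with 12 exons. Its level was 69.6 and 75.1 FPKM in control and 266 and 257 FPKM with 4-NP, 3.61-fold higher (log2 change 1.84 ± 0.07, SE, limma adjusted p = 0.000878). Sec61b, the beta subunit, was at 148 and 144 FPKM in control and 161 and 156 FPKM with 4-NP, 1.09-fold (95% interval of the log2 change -0.03 to 0.27, limma adjusted p = 0.151). Sec61g, the gamma subunit, was the most abundant member at 317 and 353 FPKM in control and 399 and 394 FPKM in treated cells, 1.18-fold (limma adjusted p = 0.0609). The gamma subunit passed after median-of-ratios scaling (limma adjusted p = 0.0257) and without control replicate 2 (limma adjusted p = 0.043). Sec61a1 lay below Sec61b in both controls and above it in both treated libraries. Sec61a2, the second alpha gene, was near 1 FPKM throughout, at 1.49 and 1.16 FPKM in control and 1.24 and 1.20 FPKM with 4-NP. Sec63, which recruits BiP to the channel, had 1.00 and 12.7 FPKM in control and 3.10 and 2.95 FPKM with 4-NP. Its controls lie on either side of the treated libraries, and 1 control decides its direction: the log2 change was -1.76 without control replicate 1 (limma adjusted p = 0.0221) and 1.01 without control replicate 2 (limma adjusted p = 0.0452).

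The translocon-associated protein complex (TRAP), which sits beside the channel and helps certain signal peptides enter, was higher in its 4 subunits. Ssr1, the alpha subunit, went from 51.6 and 57.3 FPKM to 136 and 153 FPKM, 2.65-fold (log2 change 1.39 ± 0.10, SE, limma adjusted p = 0.00236). Ssr4, the delta subunit, was at 149.8 and 148 FPKM in control and 249.7 and 236 FPKM in treated cells, 1.63-fold (limma adjusted p = 0.00296). Ssr3, the gamma subunit, was at 145 and 148 FPKM in control and 205 and 247 FPKM with 4-NP (1.54-fold, limma adjusted p = 0.0164). The beta subunit gene Ssr2 showed the smallest difference of the complex, 1.27-fold, from 185 and 205 to 249 and 244 FPKM (limma adjusted p = 0.0256). In control cells Ssr1 was the lowest of the 4 and Ssr2 the highest, and in treated cells the 4 levels lay within a narrower range. The calls of Ssr1 and Ssr4 held when any library was left out. The call of Ssr3 was lost without control replicate 1 or 2 (limma adjusted p = 0.0783 and 0.0773). That of Ssr2 was lost without control replicate 1 (limma adjusted p = 0.0618) and without treated replicate 1 or 2 (0.119 and 0.107), and with all libraries when no trend was fitted (0.0721).

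In signal peptidase, the complex that removes the signal peptide, 1 of the 2 catalytic genes rose. Sec11c lies on chromosome 18 from 61490031 to 61506508 on the plus strand with 6 exons, and was at 18.7 and 20.2 FPKM in control and 90.1 and 91.9 FPKM in treated cells. This is a 4.68-fold difference (log2 change 2.17 ± 0.07, SE, limma adjusted p = 0.000842). Sec11a, the other catalytic gene, was at 129 and 132 FPKM in control and 136 and 134 FPKM with 4-NP, 1.03-fold (95% interval of the log2 change -0.10 to 0.19, limma adjusted p = 0.482). The accessory subunit Spcs3 rose 2.62-fold, from 43.5 and 43.1 to 107 and 120.3 FPKM (limma adjusted p = 0.00188). Spcs2, also accessory, rose 1.76-fold, from 13.2 and 15.1 to 24.3 and 25.5 FPKM (limma adjusted p = 0.00817), a call lost without treated replicate 2 (limma adjusted p = 0.0551). Spcs1, a small accessory subunit, was at 56.4 and 70.8 FPKM in control and 66.1 and 73.2 FPKM in treated libraries, and its groups overlapped (limma adjusted p = 0.473). The sign of the small Sec11a difference turned when each library was scaled to the same total (-0.04 on the log2 scale).

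**Figure D3:**
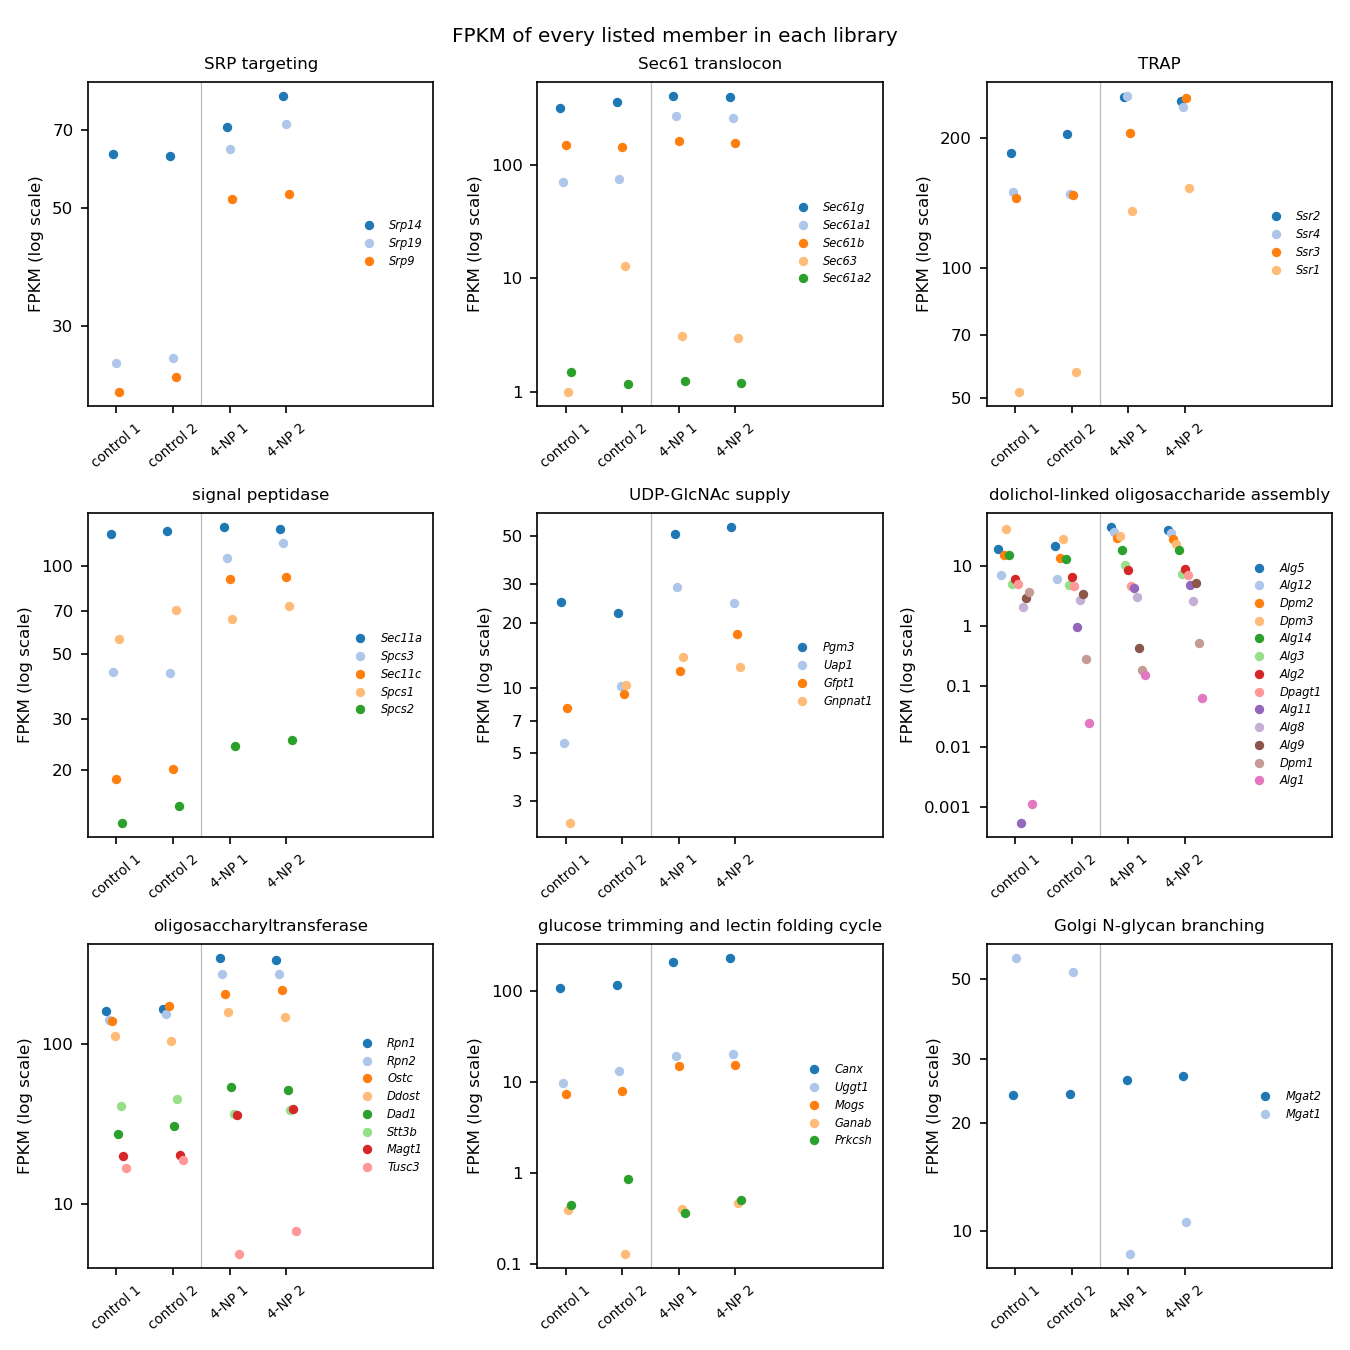
FPKM of the 49 listed members in each of the 4 libraries, on log axes whose range differs between panels, with 1 panel per step and colours naming the genes. Most genes sit higher in both 4-NP libraries, Mgat1 and Tusc3 sit lower, and Sec63, Gnpnat1, Alg11, Alg9 and Dpm1 differ widely between replicates.

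Genes that supply UDP-GlcNAc, the donor of the first sugars of the N-glycan, were at higher levels in both treated libraries than in both controls, and 2 of the 4 passed. Pgm3, the phosphomutase of this route, was at 24.9 and 22.2 FPKM in control and 51.1 and 55.2 FPKM in treated libraries, 2.26-fold higher (log2 change 1.14 ± 0.09, SE, limma adjusted p = 0.00315). Uap1, which makes UDP-GlcNAc itself, was at 5.56 and 10.2 FPKM in control and 29.2 and 24.6 FPKM with 4-NP, 3.41-fold higher (limma adjusted p = 0.0179). The call for Uap1 was lost without treated replicate 1 or 2 (limma adjusted p = 0.0934 and 0.0792). Gfpt1, the first and rate-limiting enzyme of the route, was at 8.02 and 9.37 FPKM in control and 12.0 and 17.6 FPKM with 4-NP and did not pass (limma adjusted p = 0.0752), but passed without treated replicate 1 (limma adjusted p = 0.0449) or when only its most abundant transcript was used (limma adjusted p = 0.0253). Gnpnat1, the acetyltransferase of the route, had controls far apart, at 2.38 and 10.3 FPKM, and 13.8 and 12.4 FPKM in treated cells. It did not pass (limma adjusted p = 0.21), and passed without control replicate 2 (limma adjusted p = 0.0202).

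Assembly of the oligosaccharide on dolichol was uneven along its course. On the cytosolic face of the ER, Dpagt1, which adds the first sugar phosphate, was at 4.99 and 4.56 FPKM in control and 4.61 and 6.96 FPKM in treated libraries, and its groups overlapped (limma adjusted p = 0.479). Without treated replicate 2 its log2 change turned to -0.04. Alg14, the membrane anchor of the enzyme that adds the second sugar, was at 15.0 and 12.8 FPKM in control and 18.5 and 18.5 FPKM with 4-NP, and lay just outside the threshold (limma adjusted p = 0.0538), passing with a minimum mean of 5 FPKM (limma adjusted p = 0.0432). Alg1, the first mannosyltransferase, was listed between 0.00111 and 0.152 FPKM and was not tested. Alg2, the next mannosyltransferase, rose 1.39-fold, from 6.02 and 6.53 to 8.60 and 8.87 FPKM (limma adjusted p = 0.0452), a call near the threshold that was lost when any 1 library was left out (limma adjusted p = 0.107 to 0.154), with equal library totals (0.0614) or without the filter (0.0556). Alg11, which adds the last mannoses on this face, had 5.48e-04 and 0.971 FPKM in control and 4.26 and 4.87 FPKM with 4-NP (limma adjusted p = 0.0218). It passed the filter through the treated libraries alone, and its call was lost without treated replicate 1 or 2 (limma adjusted p = 0.0939 and 0.11) and with a pseudocount of 0.1 (0.084).

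On the luminal side, Alg12, which adds the eighth mannose, had the highest log2 change of any tested member with the added 1 FPKM. With a pseudocount of 0.1 the log2 change of Alg11 was higher, at 3.83 against 2.42 for Alg12. The deposited coordinates place Alg12 on chromosome 7 from 129798663 to 129812388 on the minus strand with 10 exons. Its level went from 7.09 and 6.04 FPKM to 36.1 and 34.7 FPKM, 5.39-fold (log2 change 2.27 ± 0.11, SE, limma adjusted p = 0.00134). Alg3, which adds the first luminal mannose, was at 4.98 and 4.84 FPKM in control and 10.5 and 7.43 FPKM with 4-NP, 1.83-fold higher (limma adjusted p = 0.0467). That call was lost without control replicate 1 or 2 (limma adjusted p = 0.147 and 0.161) and without treated replicate 1 (0.101), and also with equal library totals (0.0637) or without the filter (0.0668). Alg9, which acts between Alg3 and Alg12 and again after Alg12, was at 2.90 and 3.44 FPKM in control and at 0.442 and 5.24 FPKM in treated libraries. Its treated libraries lie on either side of the controls, and the log2 change was 0.58 without treated replicate 1 (limma adjusted p = 0.126) and -1.53 without treated replicate 2 (limma adjusted p = 0.0375). Among the glucose-adding genes, Alg8, a glucosyltransferase, was at 2.07 and 2.72 FPKM in control and 3.09 and 2.60 FPKM with 4-NP and did not pass (limma adjusted p = 0.459). Alg5, which makes the dolichol-linked glucose donor, rose 2.04-fold, from 19.4 and 21.3 to 43.8 and 39.3 FPKM (limma adjusted p = 0.00431).

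The dolichol-phosphate-mannose synthase, which makes the mannose donor used in the lumen, changed in its regulatory subunit. Dpm2, that subunit, was at 15.3 and 13.7 FPKM in control and 28.6 and 28.3 FPKM in treated libraries, 1.96-fold higher (log2 change 0.93 ± 0.09, SE, limma adjusted p = 0.00428). Dpm3, the membrane tether, overlapped between groups at 41.2 and 27.7 FPKM in control and 31.6 and 22.9 FPKM with 4-NP (limma adjusted p = 0.39). The catalytic subunit gene Dpm1 was low, at 3.70 and 0.290 FPKM in control and 0.189 and 0.517 FPKM with 4-NP, and did not pass (limma adjusted p = 0.371). Only control replicate 1 held Dpm1 above 1 FPKM, and without control replicate 2 it passed as lower (limma adjusted p = 0.033).

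In the oligosaccharyltransferase, the complex that moves the finished oligosaccharide onto the protein, 6 of 8 tested members rose and 1 fell. Rpn1, a ribophorin that binds substrates, was at 161 and 166 FPKM in control and 342 and 334 FPKM in treated libraries, 2.06-fold higher (log2 change 1.04 ± 0.05, SE, limma adjusted p = 0.00132). Rpn2, the second ribophorin, was at 141 and 153 FPKM in control and 274 and 273 FPKM with 4-NP, 1.86-fold higher (limma adjusted p = 0.00236). Dad1, a small core subunit, rose 1.80-fold, from 27.4 and 30.9 to 53.7 and 51.4 FPKM (limma adjusted p = 0.00519). In each of these genes both treated libraries lay above both controls. Ddost, another core subunit, went from 111 and 105 to 159 and 148 FPKM, 1.42-fold (limma adjusted p = 0.00924), a call lost without treated replicate 1 (limma adjusted p = 0.0529). Ostc, which ties the complex to the translocon, was at 139.8 and 171 FPKM in control and 205 and 217 FPKM with 4-NP, 1.36-fold (limma adjusted p = 0.0485). It lay near the threshold, and its call was lost without control replicate 1 (limma adjusted p = 0.0723) and without treated replicate 1 or 2 (0.138 and 0.189). With all 4 libraries it was also lost under 5 other settings, equal totals, a pseudocount of 0.1, no filter, no trend and the most abundant transcript (limma adjusted p = 0.0506 to 0.0817). Stt3b, the catalytic subunit that acts after translocation, was at 41.1 and 45.4 FPKM in control and 36.8 and 38.9 FPKM in treated libraries. Its treated libraries lay below both controls, without passing (0.876-fold, 95% interval of the log2 change -0.42 to 0.05, limma adjusted p = 0.15), and it passed as lower when libraries were scaled to equal totals (limma adjusted p = 0.0434).

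The alternative oxidoreductase subunits Magt1 and Tusc3, which help glycosylate sites near cysteines, moved in opposite directions. Magt1 rose 1.88-fold, from 20.0 and 20.2 FPKM to 36.1 and 39.3 FPKM (log2 change 0.87 ± 0.08, SE, limma adjusted p = 0.0038). Tusc3, on chromosome 16 from 56247659 to 56396502 on the plus strand with 10 exons, fell from 16.8 and 18.8 FPKM to 4.94 and 6.88 FPKM, 3.01-fold lower (log2 change -1.46 ± 0.18, SE, limma adjusted p = 0.00762). The call for Tusc3 was lost without control replicate 2 (limma adjusted p = 0.051). The level of Magt1 over that of Tusc3 was 1.19 and 1.08 in the controls and 7.31 and 5.71 in the treated libraries.

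In the glucose trimming and lectin cycle, which retains a glycoprotein until it has folded, the 3 tested members rose. Canx, calnexin, the membrane lectin that holds monoglucosylated proteins, was at 109 and 117 FPKM in control and 211 and 231 FPKM in treated libraries, 1.95-fold higher (log2 change 0.95 ± 0.08, SE, limma adjusted p = 0.00306). Mogs, glucosidase I, which removes the first glucose, rose 2.00-fold, from 7.45 and 8.05 to 15.3 and 15.7 FPKM (limma adjusted p = 0.00514). Uggt1, the folding sensor that puts a glucose back, rose 1.71-fold, from 9.79 and 13.3 to 19.3 and 20.2 FPKM (limma adjusted p = 0.032), a call lost without control replicate 1 (limma adjusted p = 0.0552) and without treated replicate 1 or 2 (0.115 and 0.137). The subunits of glucosidase II, Ganab and Prkcsh, were listed with 1 transcript each between 0.132 and 0.86 FPKM in every library and were not tested.

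At the Golgi step that starts complex N-glycans, 1 of the 2 members fell and none rose. Mgat1, the transferase that opens the first branch, was at 57.1 and 52.5 FPKM in control and 8.67 and 10.6 FPKM in treated libraries. It was 5.68-fold lower (log2 change -2.39 ± 0.13, SE, limma adjusted p = 0.00155), the lowest log2 change among the tested members, and its call held under each alternative tried. Its main transcript lies on chromosome 10 from 34524845 to 34537208 on the plus strand with 2 exons. Mgat2, which opens the second branch, did not pass, with 23.8 and 24.1 FPKM in control and 26.2 and 27.0 FPKM with 4-NP (1.11-fold, 95% interval of the log2 change -0.05 to 0.34, limma adjusted p = 0.169). In control cells Mgat1 was thus above Mgat2, and in treated cells below it.

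Ratios within pairs of alternative subunits shifted between the groups, and so did the transcript shares of Alg3. Sec11c was at 0.145 and 0.153 of the level of Sec11a in the controls and at 0.663 and 0.684 in the treated libraries. Sec61a1 exceeded Sec61a2, which was near 1 FPKM throughout, by 46.8 and 64.7 times in the controls and by 214 times in each treated library. Both ratios mostly repeat the rises of Sec11c and Sec61a1, since Sec11a (1.03-fold) and Sec61a2 (0.92-fold) changed little. With 2 libraries against 2 an exact permutation test of such a ratio cannot go below p = 0.33, so these are values without a test. Of the 49 listed members, 7 had more than 1 transcript in the table. In Alg3 the 9-exon transcript held 34.8% and 21.4% of the gene's FPKM in the controls and 2.37% and 1.27% in the treated libraries. It stood at 1.74 and 1.03 FPKM in control and at 0.249 and 0.0944 FPKM in treated cells, while the 8-exon transcript went from 3.24 and 3.80 to 10.3 and 7.33 FPKM. In Gfpt1, Gnpnat1, Pgm3, Magt1, Mgat1 and Ssr1 the most abundant transcript was the same in each library and held at least 78.2% of the gene's FPKM. None of the 265 listed lncRNAs, which the authors selected as changed, carried the gene name or identifier of a member. A lncRNA with its own identifier could not match, so this does not bear on lncRNAs near the members.

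**Figure D4:**
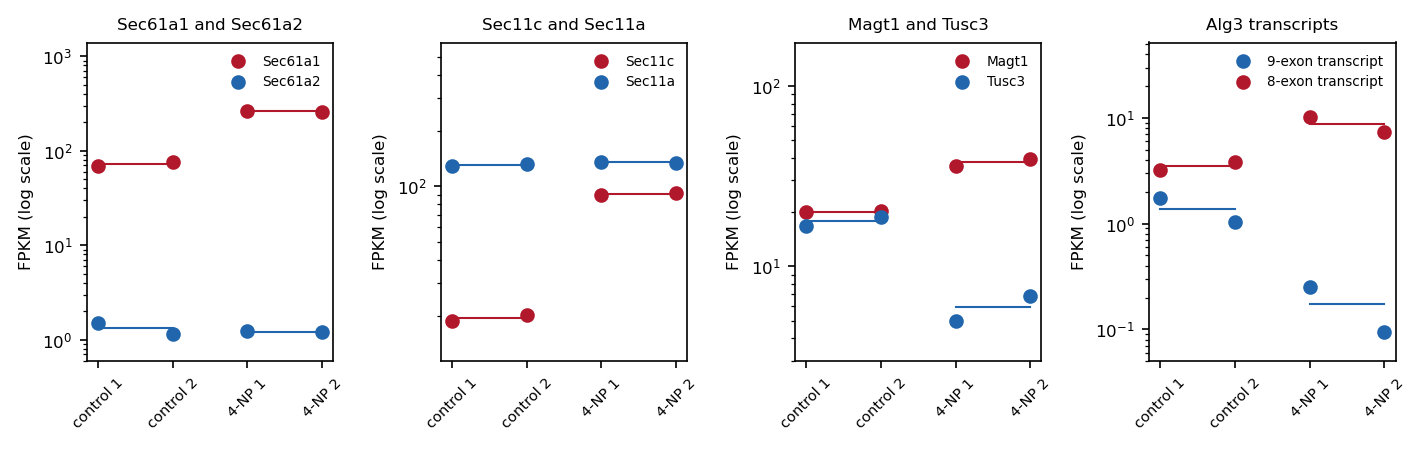
FPKM on log axes in the 2 control and 2 4-NP-treated libraries for 3 pairs of alternative subunits and for both Alg3 transcripts, with points for libraries and lines for group means. Sec61a1 and Sec11c rise while Sec61a2 and Sec11a stay close to their control levels, and Magt1 and Tusc3, like the Alg3 transcripts, move apart.

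Other genes around the translocon also rose in part. Of 14 tested partners in protein import, 6 were higher and 2 lower, with a median log2 change of 0.80. This count and those of the following lists stand beside the 24.7% higher and 23.1% lower of all genes tested, and no list was tested as such. Hspa5, which pulls chains through the channel, had the largest rise, from 416 and 412 to 7894 and 8026 FPKM, and Dnajc3, a co-chaperone, rose 4.44-fold. Tram2, a translocating chain-associated protein, fell from 2.85 and 3.87 to 0.572 and 0.742 FPKM (limma adjusted p = 0.0102), a gene that reached the filter through the controls alone, and Wrb, a receptor for tail-anchored proteins, was 1.60-fold lower. For the insertion of multipass membrane proteins and the ER membrane complex (EMC), 6 of 14 tested genes were higher and 1 lower. Ccdc47 and Nomo1, parts of the multipass translocon, rose 3.30-fold and 2.97-fold. Emc3, a core subunit of the EMC, rose 1.54-fold, and Emc9, one of its cytosolic subunits, was 2.74-fold lower.

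Supply of sugars and dolichol had 10 of 18 tested genes higher and 2 lower, with a median log2 change of 0.99. Gfpt2, the paralog of Gfpt1, was at 33.1 and 36.3 FPKM in control and 119 and 127 FPKM in treated libraries (3.55-fold, limma adjusted p = 0.00119), above Gfpt1 in every library. Nus1, a subunit of the enzyme that makes the dolichol chain, rose 2.83-fold. Dolk, the kinase of the last step of dolichol phosphate synthesis, went the other way, from 11.5 and 10.6 to 2.31 and 3.40 FPKM (limma adjusted p = 0.00621). Of the other 2 tested oligosaccharyltransferase subunits, Ost4 rose 1.48-fold.

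Lectins and mannose trimming enzymes of the ER were higher in 7 of 9 tested cases and lower in 1. Man1b1, a mannosidase that marks misfolded glycoproteins, rose 2.94-fold, and Calr, calreticulin, the soluble partner of calnexin, 1.91-fold to 683 and 687 FPKM. The least of these rises was that of Lman2, a cargo lectin (1.23-fold, limma adjusted p = 0.048). Ngly1, the cytosolic enzyme that strips glycans from discarded proteins, was 1.47-fold lower. Golgi N-glycan processing genes had 1 of 7 tested genes higher and 2 lower, with a median log2 change of -0.24. St6gal1, a sialyltransferase, reached the filter through the controls alone and fell from 7.11 and 9.62 to 0.331 and 0.477 FPKM (limma adjusted p = 0.00268), and Fut8, the core fucosyltransferase, from 12.1 and 13.7 to 2.77 and 3.41 FPKM (limma adjusted p = 0.00332). B4galt1, a galactosyltransferase, rose 2.03-fold.

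Of the 29 calls among the members, 18 held at the adjusted threshold under each alternative that gave a value. The alternatives were of scaling, pseudocount, filter, model, transcript and library. The share of calls over all genes that held in this way was not counted, so the 18 describe single members and not the set. Of these 18, 10 also had a log2 change beyond 1 on the log2(FPKM + 1) scale, where the study used edgeR values. Alg5, 2.04-fold higher, fell just short at 0.995. The 18 were Srp9, Srp19, Sec61a1, Ssr1, Ssr4, Spcs3, Sec11c, Pgm3, Alg5, Alg12, Dpm2, Rpn1, Rpn2, Dad1, Magt1, Mogs, Canx and Mgat1.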

How the data were processed

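For these files the genome build, transcript assembler, counter and strand were not given in the sources used here. HISAT2 and DESeq2 stand without a role in the submitters' processing notes, and the methods name FastQC and edgeR. The authors deposited FPKM values per transcript for each library, and these were used for all results. The mRNA table held 17290 rows, of which 1544 exact repeats and 1 rounded second entry were dropped, and FPKM was summed per gene name. The deposited circRNA counts and the score of spliced reads per mapped reads (SRPBM), computed by the authors, were used only to recover the mapped reads of each library. The deposited tables also hold fold changes and p-values, which were not used. Coordinates are those deposited, except for promoter windows (RefSeq, GRCr8).

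The test was limma 3.58.1 (R 4.3.3) on log2(FPKM + 1) for the 8012 genes whose mean reached 1 FPKM, with an intensity trend and group as the only term. Benjamini-Hochberg adjusted p under 0.05 over all genes was a call, and p-values are two-sided. FPKM is no count, so read depth per gene is unknown and no counting interval is given. Log2 changes contain the added 1 FPKM and so understate the changes of low genes, and folds are ratios of mean FPKM. The procedure was tested on simulated data that gave every gene the same spread, which does not cover genes whose replicates lie far apart. All members are named, and of each list of other pathway genes the 2 highest and 2 lowest log2 changes among the calls. 1 gene this rule would name is not reported here. Members, lists and tests were chosen with earlier results of these data known. Alternatives covered scaling, pseudocount, filter, trend, replicate block, transcript choice, threshold and leaving out each library, and, added after seeing the data, a minimum mean of 1 FPKM in each group.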

Additional observations from a re-analysis of the deposited data

How the results depend on the processing

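The members called higher numbered 27 and ranged from 23 to 28 over the alternatives that kept all 4 libraries and the adjusted threshold, and from 20 to 27 when 1 library was left out, while those called lower ranged from 2 to 3 in both cases. By the study's threshold, 6 of 17 tested translocation members and 5 of 29 tested glycosylation members were higher, against 11.4% of all genes tested. At that threshold 0 translocation and 2 glycosylation members were lower, against 15.2% of all genes tested. Leaving out 1 library gave 8 to 11 translocation members higher and 0 to 1 lower, and 11 to 16 glycosylation members higher and 2 to 3 lower. Over all genes it gave 1128 to 1527 higher and 1218 to 1334 lower, against 1981 and 1850. A minimum mean of 5 FPKM left 1158 genes lower, with fewer genes tested. With 1 library left out, the direction turned for 5 members that were not called with all 4 libraries. Their log2 changes ranged from -0.165 to 0.0377 for Sec61a2, from -0.0260 to 0.298 for Spcs1, from -1.76 to 1.01 for Sec63, from -1.53 to 0.585 for Alg9 and from -0.0409 to 0.464 for Dpagt1. With equal library totals that of Sec11a, also not called, became -0.0352. The cause was not tested. Equal totals moved the median log2 change of all genes by -0.073 and median-of-ratios scaling by 0.025 relative to the values used.

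The labels number the replicates but do not say that equal numbers share a culture. The difference between the controls and that between the treated libraries correlated at -0.0077 over 8012 genes, so the numbers were not taken to pair the libraries. With a replicate block, 1684 genes were higher and 1532 lower, and 23 members were higher and 2 lower, 9 of the higher ones in translocation and 14 in glycosylation. The block ended the calls of Ssr2 (adjusted p = 0.0558), Uap1 (0.0519), Alg2 (0.0784) and Alg3 (0.068).

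With 2 libraries per group, small differences such as those of Sec61b, Sec61g or Srp14 were not resolved. FPKM without counts gives no read depth per gene, so values under 1 FPKM carry an unknown counting error.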
